A study of Homo sapiens with 9 samples.

Results

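The nuclear genes of oxidative phosphorylation, the respiratory chain and ATP synthase of mitochondria, were followed in 3 human leukaemia cell lines exposed to a histone deacetylase (HDAC) inhibitor. Members were the array probes whose platform gene symbol starts with NDUF, SDHA to SDHD, UQCR, COX and a number, CYC1 or ATP5, without the SDHAF assembly factors. The rule reads symbols and no measured value, but it was set with earlier results of these data known. This gave 110 probes of 97 genes, out of 22177 probes and 16577 named genes. Of the 97 genes, 80 encode subunits of the 5 complexes and 17 encode assembly factors or the ATP synthase inhibitor, which share the same symbol stems and are described apart. A probe was tested if it was detected above the negative controls (detection p-value under 0.05) on at least 3 of the 9 arrays, which kept 91 members, 75 of them subunits, among 11228 genes. The 6 members below that filter were NDUFA5, COX4I2, COX6A2, COX6B2 and COX7A1, detected on 0 arrays, and COX18, detected on 1. Lack of detection describes the probe and does not show that the gene, for example NDUFA5, was silent.

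Complexes I to IV pass electrons from NADH and succinate to oxygen by way of coenzyme Q and cytochrome c, and complexes I, III and IV pump protons, whose return through complex V makes ATP. Complex I oxidises NADH, complex II is succinate dehydrogenase of the citrate cycle, complex III reduces cytochrome c and complex IV, cytochrome c oxidase, reduces oxygen. Most subunits are encoded in the nucleus, and many of their promoters are known to be bound by NRF1 and by the ETS factor GABP, also called NRF2.

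The arrays were Illumina bead arrays of total RNA, 1 for each line with SAHA, with MS-275 and untreated, so the lines served as replicates (n = 3 arrays per treatment). SAHA, or vorinostat, is a hydroxamic acid with activity on zinc-dependent HDACs of more than 1 class. MS-275, or entinostat, is a benzamide with a preference for class I, and the labels spell its name slightly differently. Each was given for 6 h at 5 µM. Stocks were made in DMSO, and the labels do not say whether untreated cells received it, so solvent and inhibitor cannot be told apart. K562 derives from chronic myeloid leukaemia at blast crisis, U937 is monocytic and NB4 is promyelocytic, although the labels call all 3 AML lines, and nothing in them says that the arrays of a line were separate cultures. In K562 the erythroid genes were bright, 8 tested markers summing to 110000 to 123000 units of normalised intensity, against 374 to 511 in U937 and 297 to 419 in NB4. The summed monocytic markers were highest in U937, at 11300 to 19500, with 2440 to 3930 in K562 and 2810 to 6750 in NB4. The promyelocytic list did not mark NB4 apart from U937. Of its 5 markers 4 were higher in U937 than in NB4 and 1 was lower (adjusted p under 0.05 by limma). MPO was bright in NB4 and ELANE in U937. This list summed to 69500 to 72600 in U937 and 40500 to 44100 in NB4, against 152 to 164 in K562. Markers of other cells, 4 of them tested, also summed highest in K562. They stood at 4490 to 6510 there, with 450 to 1420 in U937 and 408 to 1040 in NB4. Against NB4, 3 of them were higher and 1 lower in K562. Each array detected 11826 to 12705 probes, and the number of arrays limits the precision. The median standard error (SE) of a log2 change was 0.13 for members and 0.17 for all genes. As these are bulk samples, fewer cells of a type and less RNA per cell cannot be told apart.

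The 250 bases before the transcription start were read from RefSeq for the 81 of 97 members that matched, and set against the same window of 27305 genes. A strict NRF1 motif, GCGCA then any base then GCGC, stood in 19.8% of member windows (16 genes), against 5.53% of all windows. The ETS core CCGGAAG stood in 23.5% (19 genes), against 8.82%. Both strands were searched and a palindromic pair of ETS cores can overlap. The GC box GGGCGG stood in 51.9% of member windows against 42.3%, the E-box CACGTG in 9.88% against 6.49%, CCAAT in 34.6% against 33% and TATAAA in 9.88% against 11.1%. Member windows held a median of 18 CpG, against 11. A match is a description of the letters and not of a bound site.

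The first sequences belong to NDUFAF4 and COX10, the members with the strongest falls under SAHA. They are printed 5′ to 3′ on the gene's strand in GRCh38.p14, NDUFAF4 from chr6:96897892-96898141 on the minus strand and COX10 from chr17:14069254-14069503 on the plus strand, with ETS cores in capitals.
NDUFAF4: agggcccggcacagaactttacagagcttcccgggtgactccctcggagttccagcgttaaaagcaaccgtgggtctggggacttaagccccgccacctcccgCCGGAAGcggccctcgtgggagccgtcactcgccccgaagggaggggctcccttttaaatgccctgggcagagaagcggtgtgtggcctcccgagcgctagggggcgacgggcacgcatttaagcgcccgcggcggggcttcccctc
COX10: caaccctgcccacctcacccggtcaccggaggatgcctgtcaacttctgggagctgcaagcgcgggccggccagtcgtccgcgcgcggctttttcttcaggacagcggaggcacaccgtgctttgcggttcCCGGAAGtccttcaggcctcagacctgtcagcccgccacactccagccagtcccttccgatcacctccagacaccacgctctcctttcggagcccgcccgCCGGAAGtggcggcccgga

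SDHA and ATP5MK are shown because their probes differed most between K562 and NB4 among the lower members. The SDHA window, chr5:218070-218319 on the plus strand, repeats the NRF1 motif 4 times (capitals), and the ATP5MK window, chr10:103396476-103396725 on the minus strand, holds 2 overlapping ETS cores (capitals).
SDHA: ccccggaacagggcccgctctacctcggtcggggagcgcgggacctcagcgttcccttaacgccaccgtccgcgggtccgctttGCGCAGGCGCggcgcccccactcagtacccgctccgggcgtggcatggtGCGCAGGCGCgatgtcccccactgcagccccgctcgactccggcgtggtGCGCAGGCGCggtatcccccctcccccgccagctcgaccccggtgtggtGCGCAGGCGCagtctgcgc
ATP5MK: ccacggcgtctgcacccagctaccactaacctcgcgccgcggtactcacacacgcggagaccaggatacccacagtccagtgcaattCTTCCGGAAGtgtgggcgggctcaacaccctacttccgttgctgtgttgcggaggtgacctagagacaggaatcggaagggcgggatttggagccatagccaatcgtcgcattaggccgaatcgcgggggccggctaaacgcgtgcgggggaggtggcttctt

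COX8A and COX8C are the ubiquitous and the testis isoform of one small subunit of complex IV, and were detected on all 9 arrays and on the 3 U937 arrays only. Both lie on the plus strand, COX8A at chr11:63974370-63974619 with 16 CpG and 1 ETS core in capitals, COX8C at chr14:93346932-93347181 with 8 CpG and 1 NRF1 motif in capitals.
COX8A: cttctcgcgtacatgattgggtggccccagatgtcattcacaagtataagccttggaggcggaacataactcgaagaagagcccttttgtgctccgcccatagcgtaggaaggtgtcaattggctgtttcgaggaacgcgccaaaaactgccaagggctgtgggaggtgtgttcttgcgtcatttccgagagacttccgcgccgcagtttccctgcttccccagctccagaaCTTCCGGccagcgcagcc
COX8C: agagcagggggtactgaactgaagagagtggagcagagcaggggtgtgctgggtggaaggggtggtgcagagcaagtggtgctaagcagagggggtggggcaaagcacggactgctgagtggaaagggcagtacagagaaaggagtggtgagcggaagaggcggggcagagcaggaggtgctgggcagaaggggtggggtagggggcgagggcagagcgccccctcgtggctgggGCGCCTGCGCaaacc

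The first question was whether SAHA moved the genes of any complex. Few did. Of 91 members, 4 rose and 7 fell with SAHA (adjusted p under 0.05, limma with the cell line as a block, Benjamini-Hochberg over all genes), which is 12.1% of members against a background of 23.7% of all genes tested (12% higher and 11.8% lower). The median member change was 0.05 on the log2 scale, against −0.01 for all genes, and 19 members had an unadjusted p under 0.05. Among the 75 subunits 2 rose and 4 fell, and among the 16 assembly factors and the inhibitor 2 rose and 3 fell. When equal array medians replaced the quantile step, the split was 1 higher and 11 lower, and the median of all genes moved to −0.09 and that of members to −0.10.

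**Figure D1:**
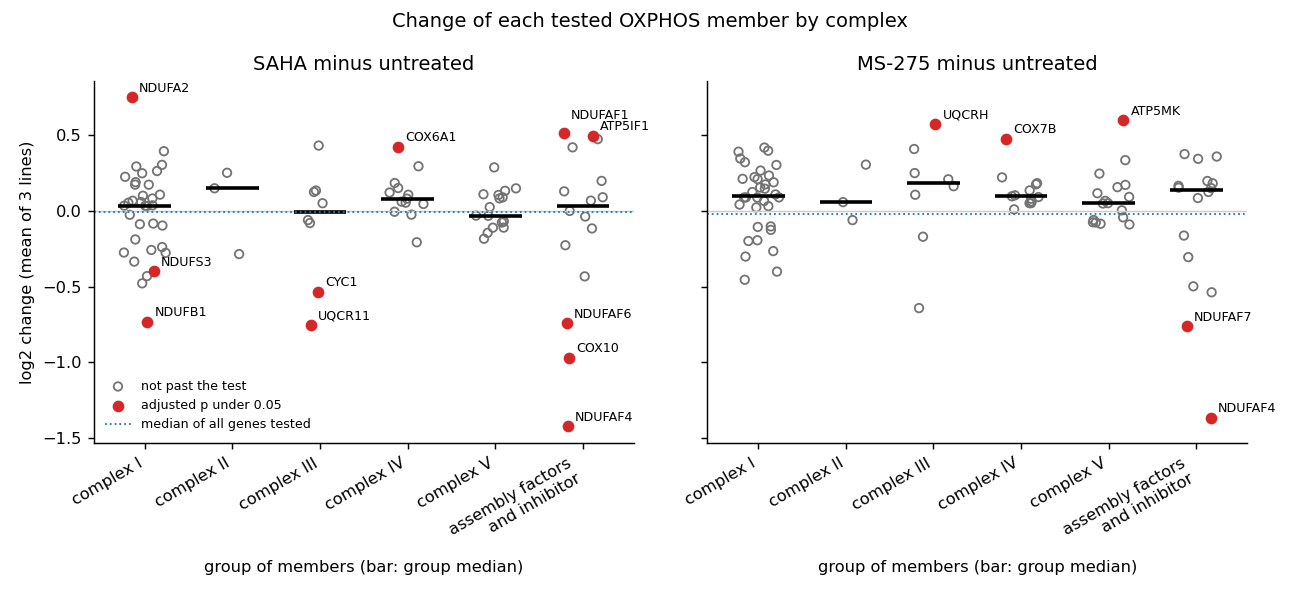
Log2 change of each tested member with SAHA (left) and MS-275 (right) against untreated cells, mean of 3 lines, by complex. Filled red points passed the test, open points did not, bars are group medians and the dotted line is the median of all genes. Most points lie within 0.5 of 0 in every complex, and the lowest point in both panels is NDUFAF4.

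By complex, 1 of 34 complex I subunits rose and 2 fell with SAHA (median 0.04). None of the 3 complex II subunits passed the test (median 0.15), 2 of 8 complex III subunits fell (median −0.01), and 1 of 13 complex IV subunits rose (median 0.08). Of 17 complex V subunits 0 passed the test by limma, with 0 at an unadjusted p under 0.05, and their log2 changes ran from −0.18 to 0.29. The medians of complexes I, II and IV were negative with arrays scaled to equal medians, at −0.11, −0.03 and −0.05.

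The largest change of any member was in NDUFAF4, an assembly factor of complex I. Its log2 level was 8.64 in K562, 8.13 in U937 and 8.56 in NB4 with SAHA, against 10.08, 9.50 and 10.01 untreated, in the same order of lines. Every SAHA array lay below every untreated array. The change was −1.42 ± 0.13 (SE, n = 3 lines), or 2.68-fold, with an adjusted p of 0.00163 by limma, and it stayed past the test without each line in turn.

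COX10 makes haem O, the precursor of the haem A of cytochrome c oxidase. Its level was 7.33, 6.60 and 8.30 with SAHA in K562, U937 and NB4, against 8.22, 8.13 and 8.79 untreated. The groups overlapped through NB4, and each line was lower with SAHA, by 0.49 in NB4 to 1.53 in U937 on the log2 scale. The change was −0.97 ± 0.21 (adjusted p = 0.0163 by limma, n = 3 lines), and without K562 or U937 it did not pass (adjusted p = 0.0811 and 0.089). NDUFAF6, a further complex I assembly factor, fell by 0.74 ± 0.20 (SE; adjusted p = 0.037 by limma).

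Complex III gave the falls of 2 subunits. CYC1, the haem protein cytochrome c1, was at 12.50, 12.46 and 12.09 with SAHA in K562, U937 and NB4, against 13.04, 13.16 and 12.45 untreated. It was lower in 3 of 3 lines, the groups overlapped slightly through NB4, and the change was −0.53 ± 0.13 (adjusted p = 0.0226 by limma). UQCR11, a small subunit of complex III, was at 7.82, 6.97 and 6.48 with SAHA, against 8.56, 7.88 and 7.09 untreated. It too was lower in 3 of 3 lines with overlap between them (−0.76 ± 0.20, adjusted p = 0.0312 by limma).

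In complex I, NDUFB1, an accessory subunit of the membrane arm, was at 6.28, 5.56 and 5.49 with SAHA in K562, U937 and NB4, against 7.03, 6.21 and 6.30 untreated. That is a fall of 0.73 ± 0.13 (adjusted p = 0.00763 by limma) and was seen in 3 of 3 lines. The groups overlapped, as K562 with SAHA lay above untreated U937. NDUFS3, a core subunit of the peripheral arm, fell by 0.40 ± 0.12 (adjusted p = 0.0466 by limma), with SAHA arrays at 12.54 to 12.95 and untreated arrays at 12.99 to 13.25, which did not overlap.

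Of the members that rose, NDUFA2, an accessory subunit of the NADH-oxidising module of complex I, moved most. It was at 13.42, 13.32 and 13.12 with SAHA in K562, U937 and NB4, against 12.91, 12.30 and 12.41 untreated. The groups did not overlap, and the rise was 0.75 ± 0.14 (1.68-fold, adjusted p = 0.00861 by limma). NDUFAF1, which helps to assemble the membrane arm, rose by 0.51 ± 0.13 (adjusted p = 0.0277 by limma). ATP5IF1, the inhibitor that blocks ATP hydrolysis by complex V, was at 12.92, 12.31 and 11.13 with SAHA, against 12.57, 11.74 and 10.56 untreated. It rose by 0.50 ± 0.14 (adjusted p = 0.0457 by limma) and its second, dimmer probe read 0.65. COX6A1, the non-muscle isoform of a complex IV subunit, was at 12.97, 12.08 and 13.07 with SAHA in K562, U937 and NB4, against 12.63, 11.69 and 12.53 untreated. Higher in 3 of 3 lines, it rose by 0.42 ± 0.12 (adjusted p = 0.0364 by limma). These last 3 rises did not pass with arrays scaled to equal medians (adjusted p = 0.148, 0.125 and 0.247 in that order).

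Leaving out a line reduced the SAHA calls to 2 without NB4 (NDUFAF4 and COX10), to 5 without K562 (NDUFAF4, NDUFB1, NDUFAF6, UQCR11 and NDUFA2) and to 1 without U937 (NDUFAF4). The share of all genes in these smaller fits is not given here, so a loss particular to the members cannot be read from them.

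**Figure D2:**
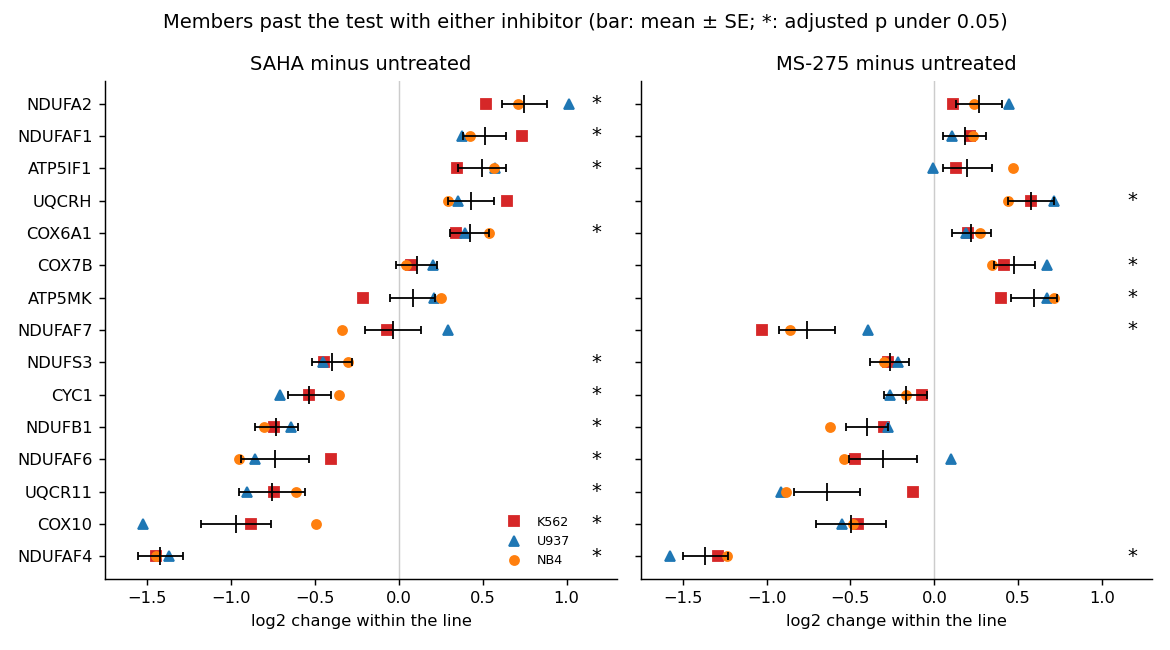
Log2 change within each line for the 15 members past the test with either inhibitor, SAHA left and MS-275 right. Squares are K562, triangles U937 and circles NB4, black bars are the mean of 3 lines with its SE, and an asterisk marks an adjusted p under 0.05. NDUFAF4 lies between −1.23 and −1.58 in all 6 pairs of arrays.

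With MS-275, measured against the same untreated arrays, 3 of 91 members rose and 2 fell. This is 5.49% of members against a background of 11.8% of all genes (4.34% higher and 7.5% lower), and 20 members had an unadjusted p under 0.05. The median member change was 0.10 on the log2 scale, against −0.02 for all genes. Of the members, 67 of 91 had a change above 0, where 47.8% of all genes did. Scaled to equal medians the members' median was −0.04 and that of all genes −0.14, with 0 members higher and 6 lower. Of the 34 complex I and 3 complex II subunits 0 passed by limma (8 and 0 at an unadjusted p under 0.05, medians 0.10 and 0.06), and 1 rose in each of complexes III, IV and V (medians 0.19, 0.10 and 0.05). The medians of complexes I, II, III and V were below 0 with arrays scaled to equal medians, at −0.02, −0.24, −0.03 and −0.05, and that of complex IV was 0.03.

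NDUFAF4 again changed most. It was at 8.79, 7.93 and 8.77 with MS-275 in K562, U937 and NB4, against 10.08, 9.50 and 10.01 untreated, without overlap. The change was −1.36 ± 0.13 (2.58-fold, adjusted p = 0.00556 by limma), and the adjusted p was 0.0762 without NB4 and 0.0689 without U937. NDUFAF7, a methyltransferase that modifies a core subunit of complex I during assembly, was at 5.42, 6.59 and 7.26 with MS-275, against 6.45, 6.99 and 8.12 untreated. It was lower in 3 of 3 lines, by 0.76 ± 0.17 (adjusted p = 0.0326 by limma), within groups that overlapped.

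The 3 rises were in subunits. ATP5MK, a small membrane subunit of complex V also known as DAPIT, was at 6.95, 9.89 and 9.70 with MS-275 in K562, U937 and NB4, against 6.55, 9.22 and 8.98 untreated (0.60 ± 0.14, adjusted p = 0.0364 by limma). UQCRH, the hinge protein next to cytochrome c1 in complex III, was at 10.63, 9.68 and 9.79 with MS-275, against 10.05, 8.97 and 9.35 untreated (0.58 ± 0.14, adjusted p = 0.0387 by limma). COX7B of complex IV was at 12.01, 12.32 and 11.62 with MS-275, against 11.60, 11.65 and 11.28 untreated (0.48 ± 0.12, adjusted p = 0.0485 by limma). Each was higher in 3 of 3 lines, with overlap between the groups across lines. The 3 rises did not pass with arrays scaled to equal medians (adjusted p = 0.0886, 0.243 and 0.352 in that order). Without NB4 or U937 no member passed the MS-275 test (0 of 91 by limma, where 2 and 0 of all genes passed), and without K562 NDUFAF4 alone did. Of 7 tested monocytic markers 2 rose with MS-275 (ITGAM by 1.91 and CD68 by 0.77 on the log2 scale), the list summed to 3930 to 19500 with MS-275 and 2530 to 13300 untreated, and their part in the members' changes was not tested.

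The inhibitors were compared directly as 1 pair of compounds, the hydroxamic acid SAHA against the benzamide MS-275, at the same dose and time. In this comparison 3 of 91 members were higher with SAHA and 3 lower, 6.59% of members against a background of 23.7% of all genes (13.4% higher and 10.2% lower). NDUFC2, an accessory membrane-arm subunit of complex I, was at 7.04, 6.59 and 5.94 with SAHA in K562, U937 and NB4, against 6.38, 5.73 and 5.38 with MS-275. The difference was 0.69 ± 0.12 (adjusted p = 0.00884 by limma), in 3 of 3 lines, though the groups overlapped across lines. NDUFAF7 differed by 0.72 ± 0.17 (adjusted p = 0.0217) and NDUFA2 by 0.48 ± 0.14 (adjusted p = 0.0408). COX17, the copper chaperone of complex IV, was at 11.70, 9.88 and 11.70 with SAHA, against 12.05, 10.69 and 12.27 with MS-275, a difference of −0.58 ± 0.17 (adjusted p = 0.0465 by limma). These groups overlapped across lines, and each line was lower with SAHA. ATP5MK was lower with SAHA (−0.51 ± 0.14, adjusted p = 0.0347 by limma) and NDUFC1, a further subunit of that arm, likewise (−0.48 ± 0.12, adjusted p = 0.0319). In the same comparison 4 of 7 tested monocytic markers were lower with SAHA (median −0.62), CSF1R at −2.63, ITGAM at −1.31, LYZ at −0.79 and CD68 at −0.62. The list summed to 2440 to 11300 with SAHA and 3930 to 19500 with MS-275. Of 4 tested markers of other cells, PECAM1, an endothelial and leukocyte adhesion molecule, was lower with SAHA (−1.85), and the part of these markers in the members' differences was not tested.

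For the other 85 members no difference between the compounds passed the test. Their 95% intervals all lay within 1 log2 unit of 0, and 52 lay within 0.5, with bounds from −0.96 to 0.77 and a median distance of 0.302 from estimate to bound. For NDUFAF4, the difference was −0.06, with an interval from −0.37 to 0.26. For COX10 it was −0.47, from −0.96 to 0.02. With arrays scaled to equal medians only NDUFC2 and NDUFAF7 passed (2 higher and 0 lower), without K562 only NDUFC2 did, and without NB4 or U937 the count was 0 of 91 by limma.

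Whether the response depended on the line was tested as an interaction between line and exposure to either inhibitor. By limma's F test 0 of 91 members and 0 of 11228 genes passed (0%), with 0 members at an unadjusted p under 0.05. With 1 array per line and treatment, the residual of that test holds the difference between the inhibitors.

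Members read as bright probes, and a filter on low values removed few of them. Of the 91, 87 were detected on all 9 arrays and 57 were among the 1123 genes with the brightest probes. Of those 57 members 5 passed the SAHA test, where 26.2% of these bright genes did, and among the 34 dimmer members 6 passed, where 23.5% of genes did. With MS-275, 1 of the 57 and 4 of the 34 passed, where 7.75% and 12.3% of genes did. The landmark subunits NDUFV1 (complex I), UQCRC1 (complex III), COX4I1 and COX5A (complex IV), and ATP5F1A and ATP5F1B (complex V) changed by −0.11 to 0.30 with SAHA and −0.09 to 0.30 with MS-275 and did not pass. NDUFS1, the largest complex I core subunit, was at 7.21, 7.50 and 8.06 with SAHA in K562, U937 and NB4, against 7.85, 7.84 and 8.37 untreated, a difference of −0.43 ± 0.15 that did not pass (adjusted p = 0.084 by limma). SDHA, the flavoprotein of complex II, differed by 0.25 ± 0.12 with SAHA (adjusted p = 0.183) and −0.06 ± 0.12 with MS-275 (adjusted p = 0.765).

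More members passed between lines than between treatments. Between K562 and NB4 33 members were higher in K562 and 16 lower, 53.8% of members against a background of 50.4% of all genes (24.2% higher and 26.2% lower). Between K562 and U937 32 were higher in K562 and 12 lower, 48.4% against 53.5% (27.7% higher and 25.8% lower). Between U937 and NB4 21 were higher in U937 and 22 lower, 47.3% against 44.8% (21.3% higher and 23.5% lower). The median member was 0.18 higher in K562 than in NB4 and 0.26 higher than in U937 on the log2 scale, against −0.03 and 0.05 for all genes. These counts include COX8C and COX7B2, which the detection filter kept through 1 line only. In complex III 6 of 8 subunits were higher and 1 lower in K562 than in NB4, and 4 were higher and 2 lower than in U937. The 3 arrays of a line had different treatments and may share a culture, so line and culture cannot be told apart and the p-values measure the spread between these arrays.

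**Figure D3:**
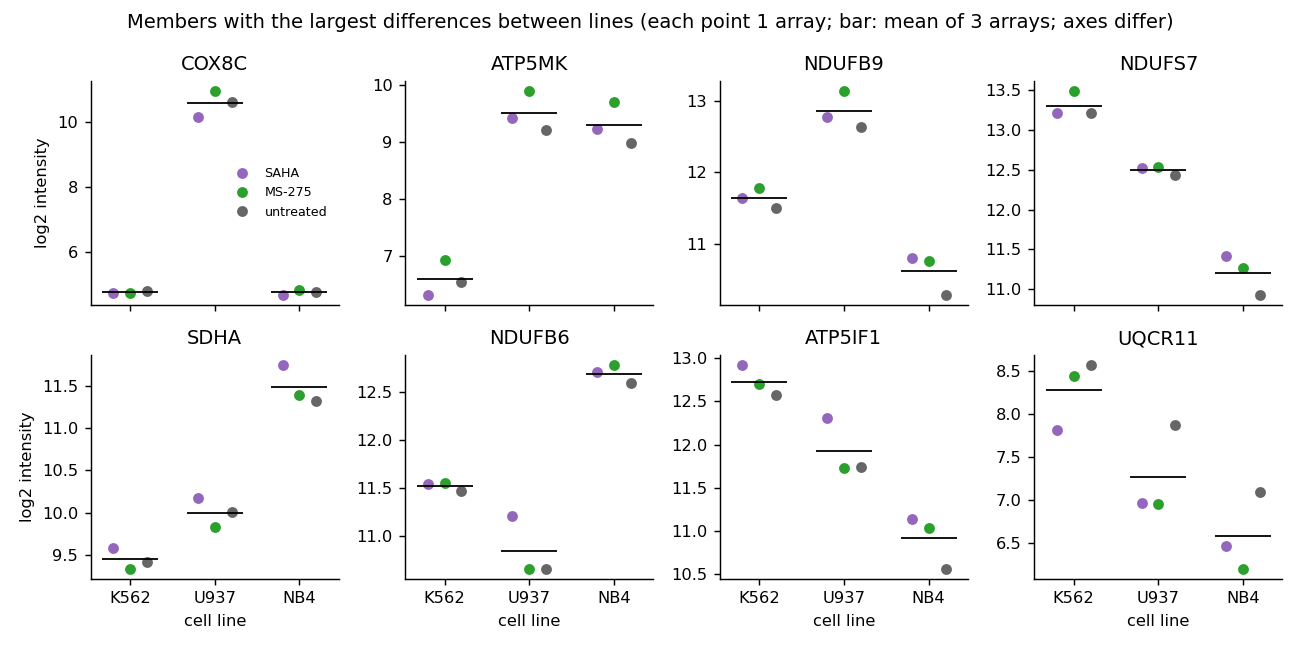
Log2 normalised intensity of 8 members with the largest differences between lines, with K562, U937 and NB4 from left to right. Each point is 1 array coloured by treatment, bars are means of 3 arrays, and the vertical axes differ between panels. COX8C stands at 10.15 to 10.95 on the 3 U937 arrays and at 4.70 to 4.83 on the other 6.

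COX8C gave the widest difference. It was at 10.15, 10.95 and 10.62 in U937 with SAHA, with MS-275 and untreated, and was detected on these 3 arrays only. In U937 it was therefore at least 40-fold higher than in NB4, and K562 was at least 39.7-fold lower than U937, where the undetected lines were set at the lowest detected signal of their arrays. COX8C passed the detection filter through U937 alone, so these folds are a description and carry no test. The partner isoform COX8A was at 13.94 to 14.04 in K562, 13.72 to 13.80 in U937 and 13.92 to 14.12 in NB4, and no line comparison passed for it. COX7B2, the testis isoform of COX7B, was detected only on the 3 K562 arrays, at 6.19, 6.22 and 5.69 with SAHA, with MS-275 and untreated. It was at least 1.71-fold higher than in NB4 and at least 1.79-fold higher than in U937, again as a description, since it passed the filter through K562 alone. COX7B itself was at 11.76 ± 0.22 in K562, 11.94 ± 0.34 in U937 and 11.41 ± 0.19 in NB4 (SD, n = 3 arrays each). Below, ± after a level is likewise an SD, and ± after a difference or change is an SE. The muscle and lung isoforms COX6A2, COX7A1 and COX4I2 and the testis isoform COX6B2 were detected on 0 of 9 arrays, where COX6A1, COX7A2, COX7A2L, COX4I1 and COX6B1 were detected on all 9.

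ATP5MK and SDHA were the lowest members of K562 relative to NB4. ATP5MK was at 6.61 ± 0.31 in K562, 9.52 ± 0.34 in U937 and 9.31 ± 0.36 in NB4 (SD, n = 3 arrays each), and the K562 arrays did not overlap those of either line. The log2 difference was −2.70 ± 0.14 against NB4 and −2.91 ± 0.14 against U937 (SE, adjusted p = 6.03e-06 and 3.35e-06 by limma), while U937 and NB4 were not distinguished (0.21, adjusted p = 0.255). SDHA was at 9.45 ± 0.13 in K562, 10.00 ± 0.17 in U937 and 11.48 ± 0.23 in NB4, an order in which each step passed the test. The log2 difference from NB4 was −2.03 ± 0.12 in K562 (adjusted p = 1.44e-05 by limma) and −1.48 ± 0.12 in U937 (adjusted p = 0.000107).

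In complex I, NDUFS7, a core iron-sulphur subunit, was at 13.31 ± 0.15 in K562, 12.50 ± 0.06 in U937 and 11.20 ± 0.24 in NB4. K562 was 2.11 ± 0.14 higher than NB4 (adjusted p = 2.46e-05 by limma). Accessory subunits went in opposite directions. NDUFB9 was at 11.64 ± 0.14 in K562, 12.85 ± 0.26 in U937 and 10.62 ± 0.28 in NB4, with U937 above NB4 by 2.23 ± 0.14 (adjusted p = 2.61e-05). NDUFB6 was at 11.52 ± 0.04 in K562, 10.84 ± 0.32 in U937 and 12.69 ± 0.09 in NB4, and the difference of U937 from NB4 was −1.85 ± 0.16 (adjusted p = 0.000118). NDUFB3 was lower in K562 than in NB4 (−1.19), and NDUFA7 and NDUFS6 were lower in U937 than in NB4 (−1.15 and −1.14), all past the test. Among assembly factors, NDUFAF7 was lower in K562 than in NB4 (−1.64), and NDUFAF6 lower in K562 than in U937 (−1.01).

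In complex III the small subunits UQCRQ, UQCRB and UQCRH were higher in K562 than in U937, by 1.50 ± 0.12, 1.23 ± 0.16 and 1.14 ± 0.14 on the log2 scale. The core proteins went the other way, UQCRC1 and UQCRC2 being lower in K562 than in U937 (−1.05 ± 0.12 and −0.77 ± 0.16), all past the test. UQCRC2 was also higher in U937 than in NB4 (1.31 ± 0.16) and in K562 than in NB4 (0.54 ± 0.16). UQCR11 was at 8.27 ± 0.40 in K562, 7.27 ± 0.53 in U937 and 6.59 ± 0.45 in NB4. COX17 was lower in U937, at 10.45 ± 0.50, than in K562, at 11.88 ± 0.17, and NB4, at 11.96 ± 0.29. ATP5IF1 was at 12.73 ± 0.18 in K562, 11.93 ± 0.33 in U937 and 10.91 ± 0.30 in NB4, and K562 was 1.82 ± 0.14 higher than NB4 (adjusted p = 5.74e-05 by limma), where its second, dimmer probe read 0.22.

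Different probes of 1 gene did not always give the same sign. Of 10 members with more than 1 tested probe, ATP5F1D, the delta subunit of the F1 part of complex V, read 0.09 and −0.19 with SAHA, 0.33 and −0.10 with MS-275, and −0.28 and 0.98 between K562 and U937. It was higher in K562 than in NB4 by both probes, at 1.21 and 1.60, and higher in U937 than in NB4, at 1.49 and 0.62. For ATP5IF1 the difference of U937 from NB4 was 1.02 by its bright probe and −1.05 by the other. With MS-275 the probes of ATP5PB (−0.08 and 0.15), ATP5PF (−0.04 and 0.12) and UQCR10 (0.21 and −0.002) also differed in sign, none of them past the test. Between lines, probes also differed in sign for ATP5ME, ATP5MC1, COX15, ATP5PB (0.29 and −0.23 for K562 against U937) and ATP5PF (0.30 and −0.09 for K562 against U937, 0.21 and −0.05 for K562 against NB4). ATP5MC1, ATP5MC2 and ATP5MC3 encode the same mature ring subunit of complex V. None passed with an inhibitor, at −0.15 to 0.10 with SAHA and −0.09 to 0.17 with MS-275, and ATP5MC3 was lower in K562 than in NB4 (−0.76 ± 0.14) and than in U937 (−0.69 ± 0.14). Processed pseudogenes are common among these families, and cross-hybridisation of the probes was not tested.

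The other genes of the pathway were read from 5 lists that hold no subunit. These lists were chosen with earlier results of these data known, so their shares are a description. The first list joins regulators of nuclear respiratory genes with factors that transcribe or copy mitochondrial DNA. Of its 17 tested genes 0 rose and 10 fell with SAHA (58.8% of the list against 23.7% of all genes, median −0.72), and 0 rose and 8 fell with MS-275 (47.1% against 11.8%, median −0.71). Those that fell include TFB2M, POLRMT and TWNK, which act on mitochondrial DNA, with both inhibitors. The 7 that did not pass with SAHA were NRF1, TFAM, TFB1M, POLG, SP1, PPARA and PPARGC1A, and none of these passed with MS-275. With SAHA and MS-275, NRF1 differed by −0.39 and −0.50 and TFAM by −0.01 and −0.35. TFB1M differed by −0.06 and −0.54 and POLG by −0.13 and −0.16. PPARGC1A was detected on 3 arrays only. MYC, a transcription factor that acts on many mitochondrial genes, was at 10.66, 9.12 and 9.66 with SAHA in K562, U937 and NB4, at 11.24, 10.67 and 10.64 with MS-275, and at 12.11, 12.92 and 13.13 untreated. It fell by 2.91 ± 0.42 with SAHA and by 1.87 ± 0.42 with MS-275 (adjusted p = 0.00396 and 0.0337 by limma), and every treated array lay below every untreated one. PPRC1, a coactivator of NRF1, was at 8.65, 8.98 and 8.97 with SAHA, at 9.82, 9.99 and 9.74 with MS-275, and at 10.52, 11.10 and 11.26 untreated, and fell by 2.09 ± 0.17 and 1.11 ± 0.17. GABPA, the DNA-binding subunit of GABP, was at 5.74, 5.63 and 5.92 with SAHA, at 5.87, 6.71 and 7.35 with MS-275, and at 7.37, 7.27 and 7.79 untreated, and fell by 1.72 ± 0.25 with SAHA. With MS-275 it differed by −0.84 ± 0.25 and did not pass (adjusted p = 0.072 by limma). Its partner GABPB1 fell with both inhibitors, by 1.38 ± 0.19 and 0.96 ± 0.19. TWNK, the mitochondrial DNA helicase, and TFB2M, a mitochondrial transcription factor, fell by 1.23 and 1.07 with MS-275, and POLRMT, the mitochondrial RNA polymerase, by 0.88.

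**Figure D4:**
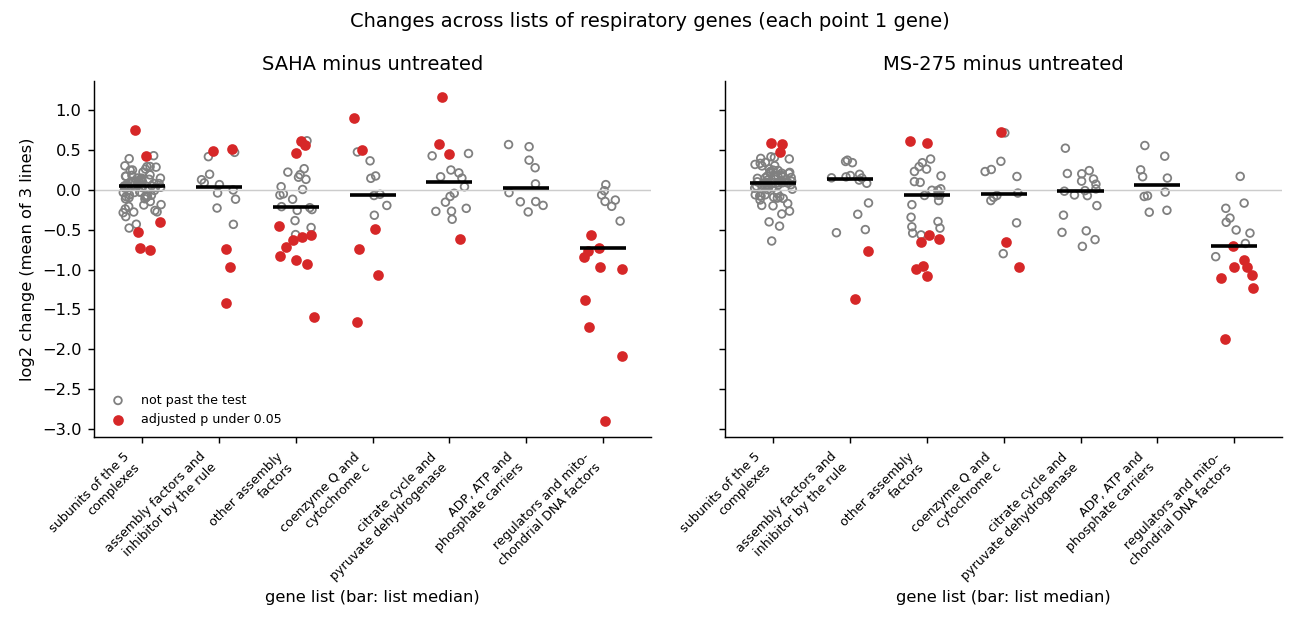
Log2 change of each tested gene in lists of respiratory genes with SAHA (left) and MS-275 (right) against untreated cells, mean of 3 lines. Filled red points passed the test, bars are list medians. The lists were chosen with earlier results of these data known. The list of regulators and mitochondrial DNA factors lies lowest in both panels, with medians of −0.72 and −0.71, while the subunits centre near 0.

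Of 30 other tested assembly factors 3 rose and 9 fell with SAHA (40% of the list against 23.7% of all genes, median −0.22), the falls led by COA7 at −1.60, COA6 at −0.93, SCO2 at −0.88 and TACO1 at −0.83, all factors of complex IV. The other falls were in factors of other complexes, ECSIT at −0.71, BCS1L at −0.63, UQCC2 at −0.59, UQCC1 at −0.57 and SDHAF2 at −0.45. With MS-275 2 rose and 6 fell (26.7% against 11.8%, median −0.07), the falls among them COA7 at −1.08, TMEM70, a factor of complex V, at −0.99, SCO2 at −0.96 and CMC2 at −0.66. CMC2, a complex IV factor, rose with SAHA by 0.61 (adjusted p = 0.0207 by limma). SURF1, also a factor of complex IV, rose with both inhibitors, by 0.57 with SAHA and 0.62 with MS-275. The other rises were FOXRED1 with SAHA, at 0.47, and SDHAF4 with MS-275, at 0.59. Of 14 genes of coenzyme Q synthesis and cytochrome c 2 rose and 4 fell with SAHA (42.9%), with COQ7, the hydroxylase of a late step, at −1.66, PDSS1 at −1.07, COQ9 at −0.75, COQ10A at 0.91 and COQ10B at 0.50. With MS-275 1 rose and 2 fell (21.4%), COQ8B at 0.73, COQ7 at −0.97 and COQ10B at −0.65. Of 18 citrate cycle and pyruvate dehydrogenase genes 3 rose and 1 fell with SAHA (22.2%, near the share of all genes), namely PDP1, a pyruvate dehydrogenase phosphatase, at 1.17, IDH3A at 0.58, DLST at 0.45 and DLAT at −0.62, and 0 passed with MS-275 by limma (5 at an unadjusted p under 0.05). Of 10 carriers and uncoupling genes 0 passed with either inhibitor by limma (2 with SAHA and 0 with MS-275 at an unadjusted p under 0.05). Scaling arrays to equal medians moved these splits towards lower calls. The other assembly factors then gave 0 higher and 13 lower with SAHA and 0 higher and 11 lower with MS-275, and the citrate cycle list 1 higher and 3 lower with SAHA and 0 higher and 6 lower with MS-275. The coenzyme Q list gave 1 higher and 5 lower with SAHA and 1 higher and 4 lower with MS-275, the first list 0 higher with 10 lower and 12 lower in the same order, and the carriers 0 higher with 1 lower and 0 lower. Under that scaling the medians of the first list, the other assembly factors and the coenzyme Q list stayed below 0 with both inhibitors. The citrate cycle median with SAHA was −0.08 in place of 0.09, and the carriers' medians were −0.06 with SAHA in place of 0.02 and −0.09 with MS-275 in place of 0.06.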

How the data were processed

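The authors deposited bead intensity per probe, not background-subtracted or normalized as the values show, with a detection p-value deposited beside each intensity. They also deposited log2 values, which equal the quantile-normalized log2 of those intensities; lumi is named in the submitters' processing notes, with no version given in the sources used here. The log2 table carried the platform's probe names and was linked to the intensity table by its values, 1 to 1 for 22177 probes. Intensities were background-corrected with limma 3.58.1 (nec, offset 16) in R 4.3.3, then quantile-normalized as log2 values, which gives every array the same distribution. Genes were represented by their brightest tested probe and fitted with limma (treatment plus cell line as the block, 4 residual degrees of freedom), with two-sided p-values adjusted (Benjamini-Hochberg) over 11228 genes. The fit was also run on simulated data that gave every gene the same spread, so that run does not show how the fit behaves on these data.

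All arrays are labelled as the same replicate, so pairing comes from the cell line. Same-line arrays correlated at 0.865 to 0.933 in their deviations from the treatment means, and arrays of other lines at −0.695 to −0.171. Subtracting a mean over the lines makes the values between lines negative in part by construction. These correlations are therefore a description and no test of the pairing. Members are named if they are among the 8 largest changes each way with an inhibitor, or the 5 each way between inhibitors or lines, that passed the test, or if they are paralogs, landmark subunits or members whose probes differ in sign. The members, lists, naming rule and alternatives were chosen with earlier results of these data known. Line dependence was tested with 3 residual degrees of freedom. No slide or date is given in the labels, so batches were not tested. NDUFA4, SDHB, UQCRFS1 and UQCRHL were among the genes not analysed here. Promoter windows come from RefSeq (GRCh38.p14).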

Additional observations from a re-analysis of the deposited data

Results flagged for a closer look

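For 6 members the change with SAHA and the change with MS-275 against the shared untreated arrays differed by the test of the difference itself (limma, adjusted p under 0.05 over all genes, 3 lines). SAHA was above MS-275 for NDUFAF7 (0.724 on the log2 scale), NDUFC2 (0.695) and NDUFA2 (0.482), and below it for COX17 (−0.582), ATP5MK (−0.513) and NDUFC1 (−0.478). NDUFAF7 changed by −0.04 with SAHA and by −0.76 with MS-275. NDUFC2 changed by 0.39 with SAHA and by −0.30 with MS-275, neither of them past the test against untreated cells (adjusted p = 0.0567 and 0.149 by limma). NDUFC1 changed by −0.09 with SAHA and by 0.39 with MS-275, and COX17 by −0.43 and 0.15 in that order, again without passing. The share of members that differed, 6.59%, stands beside 23.7% of all genes.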

How the results depend on the processing

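Counts of members past the test depended on the setting. With the 3 lines taken as pairs there were 11 calls for SAHA, 5 for MS-275 and 6 between the inhibitors, and without the replicate block on the cell line there were 0, 0 and 0, while 102, 2 and 72 of all genes passed. Leaving out a line gave 1 to 5 calls for SAHA, 0 to 1 for MS-275 and 0 to 1 between the inhibitors. Shares of all genes under this and the following settings are not set beside the counts. A change particular to the members cannot be read from such counts. For MS-275 the count was 8 without background correction and 8 with the trended, robust variance prior, and between the inhibitors it was 10 and 11 under these settings and 2 with arrays scaled to equal medians, where the median of all genes was −0.09 with SAHA and −0.14 with MS-275. The cause was not tested. Leaving out the arrays of one treatment gave 25 to 32 members between K562 and NB4 (49 with all), 26 to 30 between K562 and U937 (44) and 23 to 31 between U937 and NB4 (43), where fewer arrays were fitted. Line dependence stayed at 0 calls in every setting run. Over the named treatment results, 10 of 22 lost their call with equal medians and 2 (NDUFAF6 with SAHA and COX17 between inhibitors) without a detection filter. Of 30 named line results, 26 could be fitted when detection on all 9 arrays was required, and these 26 kept their call in each setting run. The others are comparisons of COX8C and COX7B2. Both passed the detection filter through 1 line only, so their calls carry no test. None of 486 recomputed results of named members changed sign, but all of these had passed the main test, and COX8C and COX7B2 are among them. Medians by complex are not in that count, and with equal medians several changed sign. Of 120 recomputed complex medians 21 moved by more than the spread between lines. Of these, 12 moved with equal medians, which is every median recomputed under that setting. Probe brightness limits COX8C, COX7B2, NDUFB4 and NDUFAF3, which were detected on only some arrays. It also limits NDUFC2, NDUFAF7 and NDUFB1, although these were detected on all 9. Their lowest values were 5.385 (NB4 with MS-275), 5.422 (K562 with MS-275) and 5.491 (NB4 with SAHA). The lowest detected signal, as a mean over the arrays of a line, was 5.19 in U937 and 5.267 in K562.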
